A study of Mus musculus with 39 samples.

Results

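The probes described here read transcripts that were present in fertilized mouse 2-cell embryos, low in the oocytes before fertilization, and low in cloned 2-cell embryos. They were chosen by their measured levels, where a level is the log2 intensity of a probe relative to the 75th percentile of all probes on the same array, averaged over the arrays of a group. A probe was taken where the fertilized embryos exceeded the oocytes by at least 3, exceeded the clones made without drug by at least 2, and were well above background on all 6 of their arrays. Of 41174 probes on the array, 530 passed these thresholds, out of 4096 that met those on the fertilized embryos and the oocytes alone. The 200 with the largest difference between fertilized embryos and clones were kept, with 3 genes left out by rule. They comprised 135 probes for 124 named genes and 65 probes whose accessions had no gene symbol in the tables used here.

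Agilent Whole Mouse Genome 44 K arrays of 7 groups were used, all from (C57BL/6 × DBA/2) F1 (BDF1) mice. The groups were metaphase II unfertilized oocytes (OC, n = 7), in vitro fertilized 2-cell embryos (IVF, n = 6), 2-cell embryos cloned by somatic cell nuclear transfer (SCNT) from cumulus cells without treatment (TSA(-), n = 8), SCNT embryos given 5 nM trichostatin A for 8 h from activation (TSA(+), n = 6), SCNT embryos injected with Spi-C mRNA at 1.0 mg/ml (Spi-C 1.0, n = 4) or 0.1 mg/ml (Spi-C 0.1, n = 4), and the donor cumulus cells (Cumulus, n = 4). The paper describes injection at metaphase II or at the pronuclear stage and gives no stage for the embryos on the arrays. The labels name no trichostatin A for the Spi-C groups. All embryos were cultured for 24 h, and the recipient oocytes and donor cells came from young adult females. Each array held RNA of 10 pooled oocytes or embryos, or of 500 cumulus cells, after repeated linear amplification, so a level is that of a pool and says nothing of single embryos. Nothing says that the arrays of a group came from separate days or mice, so p-values measure the spread between these pools. In such pools, fewer embryos that express a gene and less RNA per embryo cannot be told apart.

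In the mouse, the embryo's own genome is switched on in a minor wave in the late zygote and a major wave at the 2-cell stage, while the RNA stored in the oocyte is cleared. In an SCNT embryo the nucleus that must be switched on comes from a differentiated cell, whose chromatin can keep genes of other lineages closed. Trichostatin A inhibits histone deacetylases and so raises histone acetylation. Spi-C is a transcription factor of the ETS family, which binds purine-rich DNA with a GGAA core.

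Promoters are shown for the member with the largest IVF minus TSA(-) difference and for 3 transcription factor genes among those with the next largest ones that had an entry in the RefSeq table of build GRCm38.p6. Each sequence runs 5′ to 3′ on the gene's strand from 250 bases before the gene start to 50 bases after it. Eif2s3y lies at chrY:1010345-1010644 on the plus strand, Dmrta2 at chr4:109977775-109978074 on the plus strand, Foxd1 at chr13:98353995-98354294 on the plus strand and Zic1 at chr9:91365719-91366018 on the minus strand. Capitals mark matches, on either strand, to any of 7 motifs searched. These were the TATA box, spelled TATAAA, and the GC box, spelled GGGCGG. An ETS family site was searched as CCGGAAG. The purine-rich site of the Spi class within that family was searched as GAGGAAG. A site of the Nr5a2 class of nuclear receptors was searched as CAAGGTCA. Sites of paired-like homeodomain factors were searched as GGATTA. The box bound by the factor NF-Y was searched as CCAAT.
Eif2s3y: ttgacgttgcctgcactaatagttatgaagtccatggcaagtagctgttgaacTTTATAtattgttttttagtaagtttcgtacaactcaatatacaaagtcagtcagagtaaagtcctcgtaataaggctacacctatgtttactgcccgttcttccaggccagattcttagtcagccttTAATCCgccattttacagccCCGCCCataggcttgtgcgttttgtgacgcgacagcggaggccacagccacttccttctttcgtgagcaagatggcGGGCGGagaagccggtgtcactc
Dmrta2: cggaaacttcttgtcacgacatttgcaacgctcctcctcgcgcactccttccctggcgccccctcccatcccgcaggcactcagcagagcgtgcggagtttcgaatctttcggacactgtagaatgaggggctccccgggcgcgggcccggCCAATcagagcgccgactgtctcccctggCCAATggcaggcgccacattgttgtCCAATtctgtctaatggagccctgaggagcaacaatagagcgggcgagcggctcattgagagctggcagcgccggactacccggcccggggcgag
Foxd1: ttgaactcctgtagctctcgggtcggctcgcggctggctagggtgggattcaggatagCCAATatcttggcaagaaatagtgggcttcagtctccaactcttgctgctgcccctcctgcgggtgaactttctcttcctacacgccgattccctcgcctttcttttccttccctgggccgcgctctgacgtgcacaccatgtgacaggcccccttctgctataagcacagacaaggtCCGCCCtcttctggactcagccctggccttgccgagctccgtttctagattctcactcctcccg
Zic1: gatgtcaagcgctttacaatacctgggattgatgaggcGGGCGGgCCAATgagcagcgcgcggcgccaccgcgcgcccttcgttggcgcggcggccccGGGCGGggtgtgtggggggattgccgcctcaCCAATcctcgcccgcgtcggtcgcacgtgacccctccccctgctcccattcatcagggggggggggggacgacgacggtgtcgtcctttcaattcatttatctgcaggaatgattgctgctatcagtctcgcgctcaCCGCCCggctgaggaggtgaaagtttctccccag
The Eif2s3y window held 1 TATAAA, 2 GGGCGG and 1 GGATTA match. The Dmrta2 window held 3 CCAAT matches, the Foxd1 window 1 CCAAT and 1 GGGCGG, and the Zic1 window 3 GGGCGG and 2 CCAAT, and no matches overlapped. Among all 27025 promoters of the table, TATAAA was found in 14.2%, GGGCGG in 35.9%, CCGGAAG in 9.12%, GAGGAAG in 13.5%, CAAGGTCA in 1.53%, GGATTA in 7.16% and CCAAT in 37.9%. A match is a description of the letters and not evidence of a bound site. Only 96 of the 124 member genes (77.4%) had an entry, under the 80% needed, so a check of base composition or motifs over the whole set is void.

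As a set, the 200 probes stood far apart in IVF embryos from every other group. The median level was -1.43 in IVF, -6.72 in OC, -7.36 in TSA(-), -6.75 in TSA(+), -7.08 in Spi-C 1.0, -6.93 in Spi-C 0.1 and -7.86 in Cumulus. The IVF minus TSA(-) difference ran from 9.91 to 4.06 with a median of 5.45, and the median IVF minus OC difference was 4.75. These differences are what the choice of probes fixed and were not tested. The IVF arrays were close to each other, with a median SD over members of 0.53. The TSA(-) arrays spread more, with a median SD of 1.34. The choice required signal on every IVF array and a low level in TSA(-), where most values lie near background. This contrast of spreads is thus partly fixed by the choice and was not tested.

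Most members were above background on some but not all arrays of the untreated clones. All 200 were well above background on every IVF array by construction. In TSA(-), 28 members were above background on all 8 arrays, 134 on some and 38 on none. In OC the corresponding counts were 8, 79 and 113. Single TSA(-) arrays had 63 to 103 of the 200 above background, single OC arrays 18 to 47 and single Cumulus arrays 32, 43, 45 and 52. Single TSA(+) arrays had 93 to 129, Spi-C 1.0 arrays 73, 83, 85 and 89 and Spi-C 0.1 arrays 77, 83, 88 and 91. The lowest level that counted as above background lay higher on the OC arrays than on the 2-cell arrays, so OC and clone levels near it were not compared.

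The label of this set as zygotic genes that are not activated in clones was checked against 40 genes known from zygotic genome activation. Of the 30 measured, with 43 probes, only Cdx2 and Zscan4c were members, and 23 probes had an IVF minus OC difference of at least 3. Among the 43 probes, 41 were above background on all IVF arrays and 41 on all TSA(-) arrays. The IVF minus TSA(-) difference was at least 2 for 3 of them, with a median of 0.81 over all 43. Of these 43 probes, 26 were also above background on all OC arrays. For those, presence in the clones does not separate new RNA from RNA stored in the oocyte. Zfp352, an early zygotic zinc finger gene, was at 5.14 in IVF, 4.08 in TSA(-) and -3.81 in OC. Dppa4, a pluripotency-associated gene, was at 2.52, 2.35 and -6.04 in the same order, and Pramel7 at 4.59, 4.36 and -4.51. Other listed genes fell further short in the clones, such as Usp17la at 4.39, 2.52 and -5.37 and Klf5 at 1.82, 0.05 and -5.72. The members are therefore called by their rule here, as probes high in IVF and low in OC and TSA(-). Of the listed activation genes only Cdx2 and Zscan4c were among them. Oocyte, cumulus and sperm markers had no member among them. The summed level of the sperm markers was -0.84 to 0.47 in IVF and -0.56 to 0.89 in TSA(-), that of the cumulus markers was -0.26 to 0.90 in IVF, -0.74 to 0.86 in TSA(-) and 8.42 to 8.56 in Cumulus, and that of the oocyte markers was 11.7 to 12.4 in OC, 9.73 to 9.87 in IVF and 9.49 to 9.74 in TSA(-).

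Genes of the Y chromosome were among the clearest members. The donor cells and recipient oocytes came from females, so the clones hold no Y chromosome, while an IVF pool holds embryos of both sexes. A low level of these genes in the clones is therefore not read as a failure of activation. Y-linked genes nevertheless stay in the counts and medians given for the members. They were 8 of the 135 named probes, or 5.93%, against 0.0640% of all named probes. Eif2s3y, which encodes a Y-linked subunit of translation initiation factor 2, had the largest difference of all members. Its level on the IVF arrays was 0.03 at the lowest, 1.17 at the median and 1.67 at the highest, against -9.63, -8.90 and -8.26 in TSA(-) and -7.83, -7.32 and -6.39 in OC. It was above background on no OC, TSA(-) or TSA(+) array, so IVF was at least 255-fold over TSA(-) and at least 73.6-fold over OC.

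For the other Y-linked members IVF also lay above every clone array, except for 1 Spi-C 1.0 array at -3.97 for Rbmy, above the lowest IVF array at -4.16. Ddx3y, a DEAD-box RNA helicase, was at -3.89 to -1.43 in IVF and at -9.77 to -7.99 in TSA(-), at least 18.5-fold apart. Usp9y, a deubiquitinase, was at least 22.4-fold and Rbmy, an RNA-binding protein of the germ line, at least 16-fold higher in IVF. Zfy1 and Zfy2, zinc finger transcription factors, were above background on 1 of 8 TSA(-) arrays each, and IVF was at least 51.8-fold and 49.2-fold higher. The remaining Y members were Kdm5d, a histone H3 lysine 4 demethylase, and Gm20815. Of 8 Y-linked genes measured from a marker list, with 10 probes, 6 were members, and the list's summed level was 1.20 to 3.17 in IVF, -4.02 to -2.67 in TSA(-) and -4.03 to -2.57 in Cumulus. A second Zfy2 probe, which is no member, was above background on all TSA(-) arrays at a mean of -3.55, against 0.07 in IVF. The X chromosome held 9 members for 8 genes (6.67% of named members against 3.41% of named probes), among them Esx1, Cdx4 and Taf7l.

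Transcription factors made up the largest named class, with 41 probes for 36 genes, 30.4% of the named members against 5.37% of all named probes. Most of them are known for patterning of later embryos and not for the 2-cell stage. Their median level was -1.25 in IVF and -7.89 in TSA(-), and 2 of the 41 probes were above background on all TSA(-) arrays and 9 on none. The forkhead family gave 6 of its 41 measured genes (among them Foxc2, Foxd1, Foxa2, Foxf2 and Foxa1), the Hox clusters 6 of 37 (Hoxa10, Hoxd10, Hoxa11, Hoxb9, Hoxa5 and Hoxc10), the Cdx family 2 of 3 and the Dmrt family 2 of 8. Further members (among them Olig1, Mnx1, Eomes, Dbx1, Sp8, Fezf2, Ptf1a, Dbx2, Dmbx1 and Myb) also encode transcription factors but fell outside the name prefixes of the class, and this was added after their values were seen.

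Several of these factors were hardly measured in the clones. Dmrta2, a doublesex-related factor of the cortex whose promoter is printed above, was at 0.10, 0.79 and 1.29 in IVF (lowest, median, highest) and at -9.88, -8.94 and -6.56 in TSA(-), at least 205-fold apart with 1 of 8 clone arrays above background. Foxd1, known from kidney stroma, was at least 273-fold higher in IVF, with 2 of 8 clone arrays above background, and its second probe also was a member with a difference of 9.12 against 9.28. Zic1, a zinc finger factor of the neural plate, was at -0.65, -0.11 and 1.38 in IVF and was above background on no array of any other group, so IVF was at least 135-fold over TSA(-) and at least 39-fold over OC.

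Some factors were present in the oocyte or partly present in the clones. Foxc2, a factor of mesenchyme and vessels, was above background on all 7 OC arrays at -3.51, -2.48 and -0.32, below IVF at 0.69, 1.42 and 2.25, and above TSA(-) at the median (-8.56). IVF exceeded TSA(-), where 2 of 8 arrays were above background, at least 236-fold and OC 14.3-fold. Eomes, a T-box factor of the trophoblast, was at 0.42, 0.82 and 1.08 in IVF and at -8.50, -7.55 and -3.92 in TSA(-), with 3 of 8 arrays above background and IVF at least 125-fold higher. Cdx2, a homeobox factor of the trophectoderm, was at -1.25, -0.45 and -0.03 in IVF and at -9.05, -5.25 and -3.89 in TSA(-), at least 31.4-fold lower, where 4 of the 7 arrays with a value were above background.

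Receptors and secreted signals were the next class, with 19 probes for 18 genes, 14.1% of the named members against 7.12% of named probes. Olfactory receptors gave 12 of these genes, of 886 measured, and Vmn2r89 and Vmn1r53 were vomeronasal receptors, of 117 measured. Olfr20 was the highest in IVF at 3.35, 3.57 and 3.85 (lowest, median, highest), and in TSA(-) it was at -3.97, -2.31 and 1.05 on 8 of 8 arrays. Olfr881 was at 1.20, 1.38 and 1.90 in IVF and at -7.55, -3.48 and -2.56 in TSA(-), at least 51.1-fold lower with 7 of 8 arrays above background. These receptor genes belong to large families of similar sequence, so a probe may read more than 1 of them. Bdnf, a neurotrophin, was above background on no TSA(-) or OC array, and IVF was at least 90.9-fold over TSA(-). Wnt3, a secreted Wnt ligand, had both its probes among the members.

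The families known for the 2-cell stage gave 3 members, which were high in IVF and above background, at a lower mean level, on every clone array. Zscan4c, a zinc finger gene of the 2-cell stage, was at 2.70, 3.05 and 3.47 in IVF, on no OC array above background, and at -4.78, -1.24 and 0.26 in TSA(-). The groups did not overlap, and IVF was 24.6-fold higher. Its second probe, not a member, was at a mean of 4.22 in IVF, 0.35 in TSA(-) and 0.61 in OC. Pramel39 and Pramel37, members of the Prame-like family, were 43.2-fold and 34.9-fold higher in IVF than in TSA(-). Both were above background on all 8 TSA(-) arrays, at -4.46, -1.15 and 0.89 for Pramel39 and at -4.92, -2.41 and -1.07 for Pramel37. So all 3 were measured on every TSA(-) array, below the IVF level.

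The other classes were small. RNA and translation genes had 7 probes (Eif2s3y, Rbmy, Ddx3y and Taf7l among them), adhesion, matrix and cytoskeleton 6, immune genes 6, transporters and channels 5, ubiquitin, protease and protein turnover 3, metabolic enzymes 3, chromatin 1 (Kdm5d) and intracellular signalling 1 (Ppp1r17). Cypt2 and Cypt3, counted as metabolic enzymes by their name prefix alone, encode proteins of the sperm head. A remaining 40 probes for 37 genes fell in no class. Kcna1, a voltage-gated potassium channel, was at least 80.1-fold higher in IVF than in TSA(-), where 6 of 8 arrays were above background, at 1.59, 2.08 and 2.30 against -8.83, -4.15 and -1.09. Nefl, the light neurofilament chain, was 59.3-fold higher, at 2.72 to 3.32 against -4.31 to -1.30. D1Pas1, a testis-type DEAD-box RNA helicase, was at 2.68, 2.91 and 3.17 in IVF and spread widely in TSA(-), from -9.64 over -0.14 to 1.44.

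After trichostatin A, few members moved past the test. Between TSA(+) and TSA(-), 2 of the 200 were called higher and 0 lower at an adjusted p under 0.01 (limma, Benjamini-Hochberg over 39517 probes), where the share of all probes called was 0.0506% higher and 0.0936% lower. At an unadjusted p under 0.05 there were 39, of which 37 were higher, and the share over all probes was 16.2%. The TSA(-) arrays also took part in choosing the members as low there, so a rise against TSA(-) is partly fixed by that choice and is a description. The median difference was 0.38, with 136 members above 0 and 64 below, while that of all probes tested was -0.10. With members chosen by the TSA(+) arrays instead, 522 probes passed the thresholds, 159 of the 200 (79.5%) were shared, and the median was -0.06. Within scan days that held both groups the median was -0.18 (2 against 2 arrays, all probes -0.19), -0.03 (2 against 1, all probes -0.06) and 0.97 (2 against 1, all probes 0.01). On the 1 shared slide it was 0.99 (1 against 1). That slide held the only TSA(-) array of the last of these days, so the 0.97 and the 0.99 rest on the same TSA(-) array. The value thus differed between days, with a positive median on 1 day of 3.

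The 2 called probes had no gene symbol. A_51_P415395 was at -8.48, -3.98 and -2.16 in TSA(-) (lowest, median, highest), at -1.07, -0.86 and 0.04 in TSA(+) and at 1.09, 1.32 and 1.42 in IVF. The TSA(+) arrays all lay above the TSA(-) arrays and below the IVF arrays. The difference was 3.68 ± 0.59 (SE), with an adjusted p of 0.0023 in limma. A_52_P130787 was at -9.13, -8.08 and -4.90 in TSA(-), where 1 of 8 arrays was above background, and at -6.68, -4.38 and -3.51 in TSA(+), where all 6 were, with a difference of 3.23 ± 0.57 and an adjusted p of 0.0055. It was called in 7 of 14 fits that each left out 1 array, with adjusted p from 0.00062 to 0.024, and was not called without TSA(-) replicate 1, 2 or 6 or without TSA(+) replicate 3, 4, 5 or 6. Neither probe was called in a fit of the 2 groups alone or with slide as a fixed block.

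Among named members, 3 came closest. Pcdh8, a protocadherin, was at -9.88, -5.25 and -3.31 in TSA(-) and at -3.27, -2.30 and -1.69 in TSA(+), with a difference of 3.74 ± 0.88 and an adjusted p of 0.031 in limma. Dmbx1, a homeobox factor of the brain, differed by 1.35 ± 0.34 (adjusted p = 0.043) and Nefl by 1.96 ± 0.44 (adjusted p = 0.025). None of the 3 passed the threshold of 0.01. Expressed as a share of the IVF minus TSA(-) difference, TSA(+) stood at a median of 6.82% (quartiles -3.04% and 18.3%), with 7 members at 50% or more, 35 at 25% or more and 64 below 0. The largest shares among named genes were 59.0% for Kcns3, a potassium channel subunit, 57.0% for D1Pas1, 56.4% for Pcdh8, 51.6% for Capsl and 51.1% for Nrgn, a calmodulin-binding neuronal protein. Among the smallest were -43.1% for Cdx2, -31.4% for Hoxa5, -18.1% for Minar1 and -17.1% for Sp8. Minar1 and Sp8 were above background on no TSA(+) array and on 1 and 2 of 8 TSA(-) arrays. The share of such a probe is a difference between values near background. In 180 of the 200, all 6 IVF arrays still lay above all TSA(+) arrays, and the smallest IVF minus TSA(+) difference was 1.85. The members were chosen as high on every IVF array and far above TSA(-), so this separation is partly fixed by the choice. Its share over all probes was not computed, and the count is a description.

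By class, the adhesion, matrix and cytoskeleton probes had the largest median share, 27.6%, with 6 of 6 above 0. The 2-cell-stage families had 25.1%, with differences of 0.50 ± 0.56 for Zscan4c (adjusted p = 0.70), 1.36 ± 0.59 for Pramel39 (0.25) and 1.36 ± 0.49 for Pramel37 (0.15), none past the test. Transcription factors had 1.38%, with 23 of 41 above 0, and no class had a named member called. Cdx2 was at -9.80, -8.61 and -5.78 in TSA(+), where 1 of 6 arrays was above background, with a difference of -2.36 ± 0.84 and an adjusted p of 0.15. The 2 probes of Tbx20, of Taf7l and of Wnt3 each differed in the sign of their TSA(+) minus TSA(-) difference, for Tbx20 with 1.13 and -0.80. There were 19 members above background on every cloned array. TSA(+) lay above TSA(-) in 16 of them. The medians over the 19 were a difference of 0.63 and a share of 10.9% of the IVF minus TSA(-) difference. Spi-C 1.0 and Spi-C 0.1 lay above TSA(-) in 13 and 11, with median differences of 0.07 and 0.33. These members too were chosen as low in TSA(-), so a rise is partly fixed by that choice and is a description. A set of 23 members, for 14 genes, was above background on no TSA(-) and no TSA(+) array, among them Zic1, Hoxa10, Mnx1, Foxa2 and 6 Y-linked genes.

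After injection of Spi-C mRNA few members passed the test, with Nefl and Olfr890 higher at both doses. The Spi-C arrays were scanned with another scanner and a later software version than the TSA(-) arrays, so batch and group cannot be told apart here, and the TSA(-) arrays again took part in choosing the members. Of the 200, 4 were called higher and 0 lower at 1.0 mg/ml, where 8.28% of all probes were called higher and 6.12% lower. At 0.1 mg/ml, 3 were called higher and 0 lower, against 7.56% and 6.27% of all probes. The members' counts were thus below the share over all probes in both directions. However, members were chosen as low in TSA(-), where 28 of the 200 were above background on all 8 arrays. The counts, above all those of lower calls, are thus partly fixed by that choice and are a description. The median difference was 0.09 at 1.0 mg/ml (all probes 0.15) and 0.32 at 0.1 mg/ml (all probes 0.14), and at an unadjusted p under 0.05 there were 29 members, 23 of them higher, and 25, 21 of them higher, where all probes gave 35.3% and 33.8%. The sign of both medians turned with the scaling, to -0.17 and -0.080 with quantile normalization and to -0.46 and -0.47 with normexp, and that at 1.0 mg/ml also to -0.14 with median centring. With normexp background correction the calls were 2 higher and 37 lower at 1.0 mg/ml and 3 higher and 47 lower at 0.1 mg/ml, where 7.73% of all probes were higher and 23.7% lower at 1.0 mg/ml, and 7.5% and 26.3% at 0.1 mg/ml. The median of all probes was then -0.21 and -0.24.

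Olfr890, an olfactory receptor gene, came nearest to IVF. It was at -6.41, -5.39 and -5.01 in TSA(-) (lowest, median, highest), at -2.41, -2.01, -2.16 and -2.04 in Spi-C 1.0, at -1.93, -2.69, -2.62 and -2.97 in Spi-C 0.1 and at -1.89, -1.20 and -0.81 in IVF. Both Spi-C groups lay wholly above TSA(-) and below IVF. The difference from TSA(-) was 3.32 ± 0.29 (9.99-fold, adjusted p = 3.6e-09, limma) at 1.0 mg/ml and 2.92 ± 0.29 (7.59-fold, adjusted p = 3.1e-08) at 0.1 mg/ml, 78.7% and 69.3% of the IVF minus TSA(-) difference. In TSA(+) it was at -6.64, -6.26 and -4.87, -0.57 ± 0.28 from TSA(-) (adjusted p = 0.33).

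Nefl was at -0.33, 0.37, -0.15 and 0.79 in Spi-C 1.0 and at 0.69, -0.49, 0.30 and 0.12 in Spi-C 0.1, against at most -1.30 in TSA(-) and at least 2.72 in IVF. All 8 Spi-C arrays lay between both groups. The difference was 2.97 ± 0.46 (7.83-fold, adjusted p = 3.0e-05, limma) and 2.96 ± 0.46 (7.76-fold, adjusted p = 3.1e-05), 50.4% and 50.2% of the IVF minus TSA(-) difference. Dmbx1 was at -4.03, -3.74 and -2.56 in TSA(-) and at -1.94, -2.24, -1.83 and -2.56 in Spi-C 0.1, 1.5 ± 0.33 or 2.83-fold higher (adjusted p = 0.0016), and at -3.18, -2.90, -3.95 and -3.05 in Spi-C 1.0 (0.38, adjusted p = 0.46). Its Spi-C 0.1 arrays met the highest TSA(-) array and otherwise lay above. These 3 genes were called in all fits that left out 1 array.

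The other calls at 1.0 mg/ml were Mnx1, a homeobox factor of motor neurons, and Kdm5d, with differences of 1.35 ± 0.35 and 1.30 ± 0.32 (adjusted p = 0.0056 and 0.0037). Both were above background on no array of either group, so no fold is given. Kdm5d is Y-linked and the donor cells were female, so its difference is not read as expression. Mnx1 was called in 5 of the 12 fits that left out 1 array (not without TSA(-) replicate 1, 6 or 7 or any Spi-C 1.0 replicate), and Kdm5d in 9 of 12 (not without Spi-C 1.0 replicate 2, 3 or 4). Neither was called with median centring or quantile normalization, Mnx1 not with the 2 groups alone and Kdm5d not with normexp. As a whole the members stayed far from IVF after injection, at a median share of 1.58% for Spi-C 1.0 (quartiles -8.19% and 13.6%), with 88 members below 0, and 5.33% for Spi-C 0.1 (quartiles -4.27% and 15.0%), with 76 below 0. In 188 and 190 of the 200, respectively, every IVF array lay above every Spi-C array. The choice of members by their IVF level partly fixes this separation as well, and its share over all probes was not computed. Of the 41 probes of the transcription factor class by name, which holds neither Mnx1 nor Dmbx1, 18 lay above TSA(-) at 1.0 mg/ml and 26 at 0.1 mg/ml, and 0 were called.

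Of the 43 probes of the zygotic list, 2 at 1.0 mg/ml were called higher (Tbpl1 and Klf5) and 4 lower (Pou5f1, both Nelfa probes and Pramel6). At 0.1 mg/ml, 3 were higher (Klf17, Btg1 and Klf5) and 7 lower (Fbxo15, Pou5f1, Tcstv1, Zfp352, both Nelfa probes and Pramel6). These counts stand beside 8.28% and 6.12% of all probes called higher and lower at 1.0 mg/ml and 7.56% and 6.27% at 0.1 mg/ml. Pou5f1, the pluripotency factor Oct4, differed by -0.77 ± 0.14 and -0.70 ± 0.14. In TSA(+) 0 of the 43 were called, with a median difference of 0.17.

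The choice of members used neither Spi-C group, and between the doses 0 of the 200 were called (limma), with a lowest adjusted p of 0.999 and 7 at an unadjusted p under 0.05, of which 1 was higher at 1.0 mg/ml (4.11% over all probes). Over all probes, 0.00506% were called higher and 0% lower. The median difference of Spi-C 1.0 minus Spi-C 0.1 was -0.17, against 0.02 over all probes. Olfr890 and Nefl overlapped between doses. Dmbx1 differed by -1.13 ± 0.38, with no overlap between the 4 arrays of each (adjusted p = 0.999).

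The donor cumulus cells gave the other comparison of groups that took no part in the choice of members. Of the 200, 18 (9%) were called higher and 53 (26.5%) lower in Cumulus than in TSA(+), against 25.4% and 28.3% of all probes, and the median difference was -0.61 (all probes 0.08). The share called lower was near that over all probes, and the share called higher was below it. The split depended on the scaling, with 36 higher and 44 lower after median centring, where 37.8% and 21.7% of all probes were called and their median was 0.77, and 43 and 25 with normexp, where 45.9% and 23.7% were called and the median was 0.44. The Cumulus arrays were read with the later software as well, so batch and group cannot be told apart.

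The 18 called higher were probes for 16 genes and 2 without a symbol, and 13 of them were above background on all 4 Cumulus arrays. Zfp503, a zinc finger gene, was at 1.98, 1.21, 1.58 and 2.43 in Cumulus, at -4.77, -3.54 and -2.84 in TSA(+) (lowest, median, highest) and at 0.10, 0.29 and 0.76 in IVF. The donor cells thus lay above IVF and the clones far below both, with a Cumulus minus TSA(+) difference of 5.44 ± 0.55 (43.5-fold, adjusted p = 5.4e-10, limma). Rbp4, the retinol carrier, differed by 6.84 ± 1.09 (at least 68.2-fold, with 4 of 6 TSA(+) arrays above background), Ifit3, an interferon-induced gene, was at least 59.6-fold and Hoxd10 at least 15.3-fold higher. Dmrta2 was at -2.29, -5.75, -5.11 and -3.57 in Cumulus and 4.45 ± 0.87 above TSA(+) (adjusted p = 5.0e-05). So some members whose transcripts were in the donor cells were low in the clones made from them.

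Also called higher, among others, were Prdm8, Foxf2, Irf4, Fcrls, Hoxc10, Pcdhb5, Hoxb9, Fam181b, Eif2s3y and Foxa2. Foxa2 was above background on no Cumulus array, and Eif2s3y on 1 of 4, at -5.00, and the donor cells are female. Among the transcription factor class 10 probes were higher and 6 lower. The 53 lower probes stood for 33 genes, and 45 of them were above background on all TSA(+) arrays. D1Pas1 was lower by 8.37 on the log2 scale (a difference of -8.37 ± 1.35, adjusted p = 3.3e-06), Zscan4c at least 42.1-fold, Nefl at least 49.6-fold, Pramel37 at least 33.6-fold and Kcna1 at least 27.4-fold. All 3 members of the 2-cell-stage families and 8 of 19 receptors and signals were lower in the donor cells than in TSA(+).

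The limit of 200 fell within a continuous range of values. Just inside it were Myb at an IVF minus TSA(-) difference of 4.10 and 2 unnamed probes at 4.07 and 4.06, and just outside it Hoxd3 at 4.06, Igsf1 at 4.05 and Gm9 at 4.04.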

How the data were processed

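RNA of 39 samples was measured on 1-colour Agilent arrays. The authors deposited scanner files with the processed intensity of each spot (Feature Extraction, 9.5.3.1 per the labels, versions 9 and 10 in the file headers), and a table of log2 values, which, per the deposited files, equal log2 of that intensity minus the 75th percentile of the array, centred for each probe (all 41174 probes matched within 0.01, array offsets at most 0.035; array medians -0.30 to 1.08; the centring rule is not given in the sources used here). Here log2 intensity minus the 75th percentile was computed, outlier spots were left out (1820 missing values), spots of a probe were averaged, and probes reaching an intensity of 10 on an IVF or cloned array were tested. limma 3.58.1 (statmod 1.5.0, R 4.3.3) was used with Benjamini-Hochberg adjustment and a threshold of 0.01, with all groups of each fit sharing the spread. Tables were made with Python 3.11.15, pandas 2.3.3 and numpy 2.4.6. Where a probe was well above background on none or only some arrays of the dimmer group, the fold is given as a lower bound ("at least"), with arrays below the lowest signal well above background set to that signal. The fit was tested on simulated data in which 50 of 39517 probes were changed by 4 on the log2 scale. Of these, 48, 47, 43, 37 and 41 were recovered in the 5 comparisons in the order of the report. This was the largest change simulated, and its recovery does not carry over to smaller changes. Smaller changes were simulated as well, and their recovery is not reported here. The changed probes were drawn from all probes tested and not from the members, most of which lie near background in the clones.

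The study's methods used analysis of variance with Tukey's test, which was run as an alternative, as were other scalings, background corrections, filters, thresholds, batch terms and fits without single arrays. The members and gene lists were chosen with earlier results of these data known. Named were the 20 largest differences, called members, up to 4 in each class, the 5 highest in Cumulus, the members at the limit, the extremes of the share after TSA and Y-linked members. A further choice of factors and examples was made after values were seen, and some genes are not reported here. 75th percentiles were intensities of 279 to 527 in OC, 1029 to 1610 in IVF, TSA(-) and TSA(+), 2140 to 2707 in Spi-C and 814 to 1125 in Cumulus. The number of arrays limits the precision.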

Additional observations from a re-analysis of the deposited data

Results flagged for a closer look

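Of 59 groups of values of 27 named members and of the set that were examined, 5 held 1 array whose gap to the nearest other, relative to the range of the group, passed Dixon's 95% limit, and chance gives about 1 in 20. Zic1 was at 1.38 on IVF replicate 2 (other IVF arrays -0.65 to 0.08). Olig1 was at -0.79 on IVF replicate 5 (others -0.22 to 0.01). Taf7l was at -2.17 on IVF replicate 4 (others -0.47 to 0.01). A_52_P130787 was at -6.68 on TSA(+) replicate 2 (others -4.59 to -3.51). Dmbx1 was at -2.56 on TSA(-) replicate 7 (others -4.03 to -3.47). The IVF arrays concerned differ from gene to gene.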

How the results depend on the processing

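Members called between TSA(+) and TSA(-) numbered 2 in the main setting, 5 at an adjusted p under 0.05, 6 with normexp, 5 with Tukey's test, 1 with scan day as a term, 0 with the 2 groups alone, with slide as a fixed block or on shared scan days, and 1 to 2 without single arrays. For Spi-C 1.0 the count of 4 became 15 at 0.05, 2 with median centring or quantile normalization, 39 with normexp, 7 with the 2 groups alone and 3 to 5 without single arrays. For Spi-C 0.1 the count of 3 became 13 at 0.05, 50 with normexp, 5 with probes well above background on every array of a group, 7 with the 2 groups alone and 3 to 5 without single arrays. Between Spi-C doses the count was 0 under all 14 alternatives, of which slide as a fixed block was chosen after seeing the data. For Cumulus it was 68 to 75 without single arrays and within 1.5 times the 71 under the other alternatives run. With the replicate block, replicate numbers being shared between groups, the counts were 0 for TSA(+), 0 for Spi-C 1.0, 0 for Spi-C 0.1, 0 between doses and 56 for Cumulus. Same-numbered arrays did not deviate together (correlations from -0.09 to 0.06, 0 pairs over 0.1). These correlations show no pairing by number but cannot exclude a shared session.

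The median TSA(+) difference of 0.38 was 0.25 to 0.49 without single arrays, 0.56 with median centring, 0.57 with quantile normalization, 0.11 with normexp and -0.060 with the opposite choice of members. That of Spi-C 1.0 was 0.0071 to 0.22 without single arrays, 0.0070 over all probes that meet the thresholds, -0.14 with median centring, -0.17 with quantile normalization and -0.46 with normexp. That of Spi-C 0.1 was 0.21 to 0.41 without single arrays, 0.16 with median centring, 0.048 over all probes that meet the thresholds, -0.080 with quantile normalization and -0.47 with normexp. The 530 probes passing the thresholds became 118 with normexp, of which 47 were members, and were 518 to 544 without single arrays. The cause of these changes was not tested. Most clone and oocyte values lie near background, where signal limits precision.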
